A study of Mus musculus with 6 samples.

Results

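The genes described here are 32 genes of fatty acid oxidation, chosen by symbol from a list of the enzymes, carriers and regulators of the pathway, among 24407 genes in the deposited count table. All 32 were found, and 31 had enough reads to be tested among 14539 genes. They were compared between 2 genotypes of C57BL/6 mice in islets of Langerhans, which hold the hormone-making cells of the pancreas. Lmna LCS mice, whose libraries carry the tag KIKI, are described by the study's title as making lamin C as their only product of Lmna, a gene that otherwise also yields lamin A. The controls were wild-type (WT) mice. Mice of both genotypes were 70 weeks old and fed regular chow. Each genotype had 3 libraries of poly(A) RNA, and each library held the islets of 3 pooled mice. No sex, litter or batch was labelled, and p-values measure the spread between pools. The knock-in was not restricted to a cell type in the labels.

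Fatty acid oxidation breaks fatty acids down for energy. Acyl-CoA synthetases first join the fatty acid to coenzyme A, the carnitine shuttle carries long chains into the mitochondrion, and a repeated cycle (dehydrogenation, hydration, a further dehydrogenation and thiolysis) shortens the chain and releases acetyl-CoA. Electron transfer flavoprotein hands the electrons of the acyl-CoA dehydrogenases to the respiratory chain, auxiliary enzymes prepare unsaturated chains, and peroxisomes shorten chains that mitochondria handle poorly. In beta cells, glucose restrains the entry of fatty acids into mitochondria through malonyl-CoA, which inhibits CPT1, and loss of the short-chain enzyme encoded by Hadh is known in humans to cause excess insulin secretion.

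The libraries held 26123654 to 68036676 counts. The rows Rn45s, Lars2 and Mir6236, grouped here as ribosomal or ribosomal-like, took 52.3% to 54.1% of the LCS counts and 7.64% to 18.5% of the WT counts. The highest WT share was that of replicate 1. Lars2 is itself a protein-coding gene, and whether its row and that of Mir6236 hold ribosomal reads was not tested. Scaling factors of the trimmed mean of M-values (TMM) method accordingly differed between the genotypes, at 0.633 to 0.749 in LCS and 1.395 to 1.498 in WT. In WT replicate 1, 59.7% of all genes tested lay nearer the LCS mean than the mean of WT replicates 2 and 3. This share was not computed for the other WT libraries, so it cannot set replicate 1 apart from them. Results are also given without WT replicate 1. Lmna itself was at 62.4, 62.0 and 78.9 CPM (the gene's rate among the library's counts, after TMM scaling) in LCS and at 61.3, 27.3 and 21.0 in WT, so WT replicate 1 was close to the LCS libraries, and gene-level counts cannot separate lamin A from lamin C transcripts. Markers of beta cells summed to 175030 to 263580 CPM in LCS and 147690 to 171940 in WT and were led by the insulin gene Ins2, so the labelled tissue's defining genes were present. The 9 beta cell markers did not go one way by sign, and 0 were called. Ins2 (log2 fold change 0.63) was the only 1 without overlap, whereas Slc2a2 and G6pc2 had -0.77 and -0.44 with overlapping groups. Acinar markers, enzyme genes of the exocrine pancreas, were higher in LCS for 14 of the 15 tested by edgeR at an adjusted p under 0.05, with sums of 508 to 888 CPM in LCS and 140 to 230 in WT.

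Promoter sequences are shown for the genes whose pairing or shared function the results turn on. They come from RefSeq on GRCm38.p6, which is not the mm9 build named for the counts, and were matched by NCBI gene number for 26 of the 32 genes. Cpt1b, Crat, Acad9, Acaa2, Acat1 and Decr1 were not in that table. Hadha and Hadhb, the 2 subunit genes of the mitochondrial trifunctional protein, lie head to head, and the 272 bases between their starts at chr5:30154981-30155252 are given on the + strand, with the GC box GGGCGG in capitals on either strand. Etfa, Etfb and Etfdh encode the electron transfer flavoprotein subunits and its dehydrogenase, and the 250 bases before each start are given 5′ to 3′ in the direction of the gene. They lie at chr9:55512244-55512493 on the - strand for Etfa, chr7:43443822-43444071 on the + strand for Etfb and chr3:79628768-79629017 on the - strand for Etfdh. Capitals there mark the CCAAT box and the NRF1 core GCGCATGC, on either strand (a CCAAT box on the opposite strand reads ATTGG).
Hadha-Hadhb: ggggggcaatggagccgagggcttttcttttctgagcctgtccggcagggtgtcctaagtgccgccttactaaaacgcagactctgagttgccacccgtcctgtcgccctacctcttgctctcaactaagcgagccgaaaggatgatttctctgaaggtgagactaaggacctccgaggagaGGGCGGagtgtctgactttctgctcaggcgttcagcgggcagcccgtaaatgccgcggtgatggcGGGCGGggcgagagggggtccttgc
Etfa: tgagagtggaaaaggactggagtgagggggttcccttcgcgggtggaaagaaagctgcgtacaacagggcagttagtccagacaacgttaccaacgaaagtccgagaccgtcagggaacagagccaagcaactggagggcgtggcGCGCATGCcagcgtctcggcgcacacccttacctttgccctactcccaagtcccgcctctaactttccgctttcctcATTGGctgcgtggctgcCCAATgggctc
Etfb: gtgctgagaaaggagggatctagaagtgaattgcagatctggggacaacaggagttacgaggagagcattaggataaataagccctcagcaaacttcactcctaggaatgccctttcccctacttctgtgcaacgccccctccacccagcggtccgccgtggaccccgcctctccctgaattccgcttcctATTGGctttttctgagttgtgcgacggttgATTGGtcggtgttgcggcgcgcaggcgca
Etfdh: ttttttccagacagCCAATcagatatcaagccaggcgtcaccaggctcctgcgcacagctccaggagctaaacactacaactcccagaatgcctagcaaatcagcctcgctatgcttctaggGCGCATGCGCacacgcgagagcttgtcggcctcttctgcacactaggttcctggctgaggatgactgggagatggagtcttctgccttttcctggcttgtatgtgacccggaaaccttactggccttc

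Between Hadha and Hadhb the GC box occurred at 2 places, both on the + strand. Etfa and Etfb each held a pair of CCAAT boxes within 59 bases of the start, whereas that of Etfdh lay 236 bases before it. The NRF1 core was found in Etfa and, as an overlapping match on both strands, in Etfdh, and was absent from this window of Etfb. Over all 250-base windows searched on both strands, the NRF1 core GCGCATGC occurred in 4 of the 26 genes (15.4%; Acadm, Etfa, Etfdh and Ppara) and in 2.56% of 27025 genes with a promoter in the table. The GC box GGGCGG occurred in 18 of the 26 (69.2%) against 35.4%, and CCAAT in 12 (46.2%) against 37.5%. The 27025 genes were not limited to those with enough reads in islets, so these shares do not compare like sets. The classical element of PPAR receptors, a direct repeat of AGGTCA with 1 base between the copies, had 0 matches among the 26 and occurred in 0.0407% of all genes, and TCAAGGTCA, the element of estrogen-related receptors, also had 0 matches against 0.422%. The single site AGGTCA, whose letters are contained in both of those elements, occurred in 4 genes (15.4%; Cpt1a, Acadvl, Acadm and Echs1) against 15.8%. A match describes the letters in the window and not bound protein, and the absence of one says only that these letters are not in the window.

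Between LCS and WT islets none of the 31 genes passed the test. By edgeR's quasi-likelihood test, with Benjamini-Hochberg adjustment over all genes at a threshold of 0.05, 0 of the 31 were called, against 321 of 14539 genes (2.21%). At an unadjusted p under 0.05 there were 7 higher in LCS (22.6% of the 31, where 13.3% of all genes were) and 2 lower (6.45%, where 10.8% were). The groups did not overlap, with all LCS libraries above all WT libraries, in 10 genes (32.3%, where 14.6% of all genes did so). With all LCS libraries below, there were 2 (6.45%, where 12% of all genes did so). The 10 were Slc25a20, Cpt2, Acadvl, Echs1, Acat1, Acaa1a, Eci1, Eci2, Etfa and Etfb, and the 2 were Acsl3 and Acsl4. Fold changes, as log2 of LCS over WT, ran from -0.60 for Acsl4 to 0.74 for Eci1, with a median of 0.25 beside 0.01 over all genes tested. Of the 31 values, 19 were above 0 and 12 below.

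**Figure D1:**
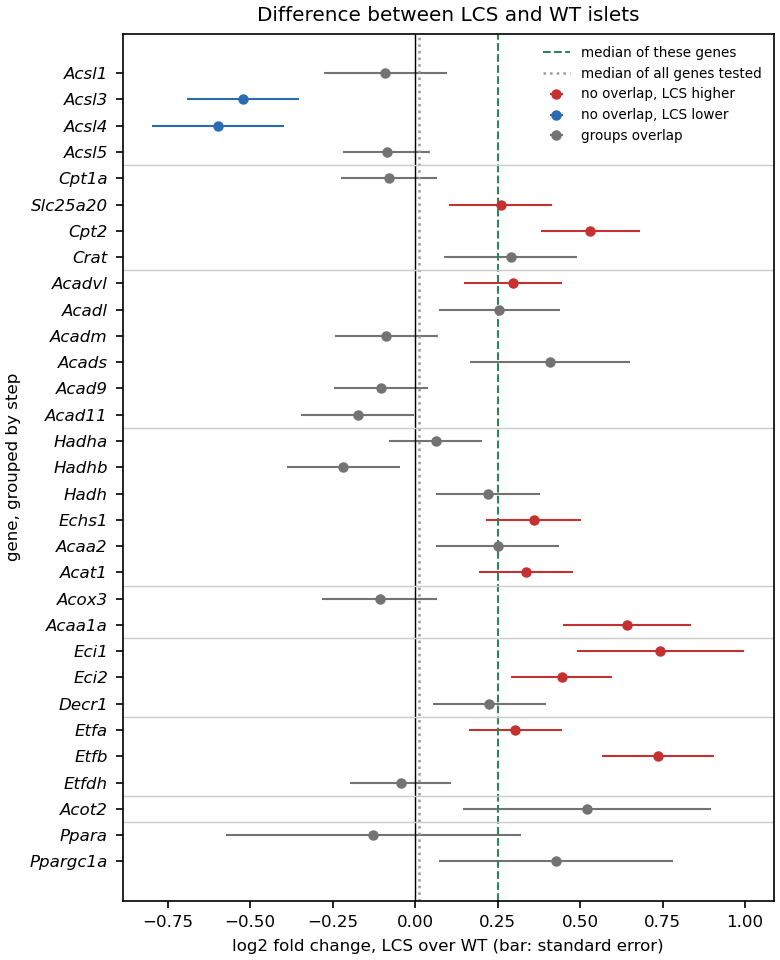
Log2 fold change (LCS over WT, x axis) of the 31 genes tested, grouped by step (y axis), with bars for 1 standard error from edgeR. Red and blue points mark the 10 genes higher and the 2 genes lower in LCS with no overlap between groups, and the dashed and dotted lines mark the medians of these genes (0.25) and of all genes tested (0.01).

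Calls depended on the tool and on WT replicate 1. DESeq2's Wald test called 3 genes higher (Acaa1a, Cpt2 and Etfb; 9.68% against 6.44% of all genes) and 2 lower (Acsl3 and Acsl4; 6.45% against 3.93%). Limma-voom with sample quality weights called 10 higher (32.3% against 19.9%) and 3 lower (9.68% against 16.3%). Without WT replicate 1, edgeR called 5 higher (16.1% against 12.5%) and 1 lower (3.23% against 7.68%). The 5 were Acaa1a (log2 fold change 0.84 ± 0.17 SE), Acot2 (1.10 ± 0.30), Cpt2 (0.61 ± 0.16), Eci1 (1.05 ± 0.21) and Etfb (0.78 ± 0.19), with adjusted p from 0.00886 to 0.0291, and the gene called lower was Acsl4 (-0.71 ± 0.20, adjusted p = 0.0291). Etfb was also called without LCS replicate 2 (0.89 ± 0.17, edgeR adjusted p = 0.0438, where 1.77% of all genes were called higher) and with no filter on low counts (0.73 ± 0.17, edgeR adjusted p = 0.0345, where 2.95% were). In WT replicate 1, 18 of the 31 genes (58.1%) lay nearer the LCS mean, about the share of all genes.

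**Figure D2:**
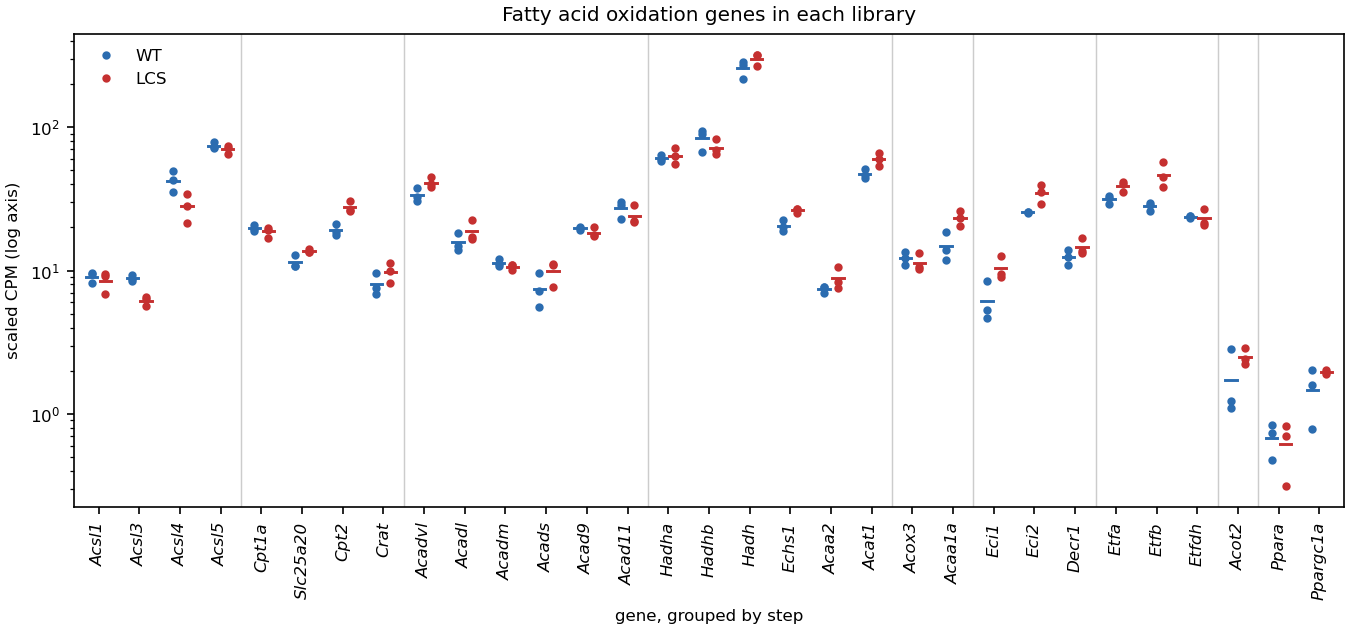
Scaled CPM (y axis, log scale) of the 31 genes tested in each of the 3 LCS and 3 WT libraries, grouped by step along the x axis, with a line for each group's mean. Levels span from 0.315 CPM for Ppara to 317 for Hadh, both in LCS replicate 1, and the groups of 19 genes overlap.

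The activating enzymes had log2 fold changes below 0 in all 4 genes (median log2 fold change -0.31), and none was called. Acsl4, the synthetase that prefers arachidonic acid, was at 28.4, 34.2 and 21.4 CPM in LCS replicates 1 to 3 and at 35.3, 42.7 and 49.2 in WT replicates 1 to 3. Every LCS library lay below every WT library, WT replicate 1 being the nearest, with a log2 fold change of -0.60 ± 0.20 (SE; edgeR adjusted p = 0.124). Acsl3, an enzyme of the endoplasmic reticulum and lipid droplets, was at 6.29, 5.70 and 6.54 CPM in LCS and 8.52, 9.30 and 8.73 in WT. These groups did not overlap either (-0.52 ± 0.17, edgeR adjusted p = 0.119). Exons of Acsl3 overlap those of Utp14b on the same strand in the GENCODE M21 annotation, so the counts of either gene may hold reads of the other. For Acsl1 and Acsl5, long-chain synthetases of liver, fat and gut, the log2 fold changes were -0.09 in each case, and the groups overlapped. Acsl5 was the most abundant of the 4, at 15.4 to 17.4 CPM per kb of transcript in LCS and a mean of 17.5 in WT.

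In the carnitine shuttle the inner-membrane enzyme and the carrier were higher in LCS in every library, and the outer-membrane enzyme was not. Cpt2, which rebuilds acyl-CoA inside the mitochondrion, was at 26.5, 26.0 and 30.6 CPM in LCS and 21.2, 17.8 and 18.5 in WT (log2 fold change 0.53 ± 0.15, edgeR adjusted p = 0.0894). Slc25a20, the carnitine-acylcarnitine carrier, was at 14.2, 13.5 and 13.5 CPM against 10.8, 12.9 and 10.8 (0.26 ± 0.16, edgeR adjusted p = 0.331). Neither group overlapped, though for Slc25a20 WT replicate 2 came close to the LCS libraries. Cpt1a, the malonyl-CoA-sensitive entry step, was at 16.9 to 19.9 CPM in LCS and 18.9 to 20.9 in WT, with a log2 fold change of -0.08 ± 0.15. The ratio of Cpt2 to Cpt1a was 1.37, 1.31 and 1.80 in LCS and 1.08, 0.940 and 0.886 in WT, a separation without overlap that was not tested. These transcripts differ in length, at 1783 nucleotides for Slc25a20, 2372 for Cpt2 and 4317 for Cpt1a. With the smooth offset for length described below, the log2 fold changes were 0.03 for Slc25a20, 0.08 for Cpt1a and 0.46 for Cpt2. The contrast between the carrier and Cpt1a was thus absent there, and that of Cpt2 remained. Crat, the acetyl-carnitine enzyme, had a log2 fold change of 0.29 ± 0.20 and overlapping groups. Cpt1b, the muscle form of CPT1, was the gene not tested. It had 0 counts in each LCS library and in WT replicate 1, and 5 and 2 counts in WT replicates 2 and 3. Its exons share 2744 bases with those of Gm44502 on the same strand in the GENCODE M21 annotation. Reads of Cpt1b may therefore have been given to the other gene or left out, which was not tested. A count of 0 allows up to 3 counts, or 0.0441 to 0.0722 CPM without TMM scaling in the LCS libraries, by counting error only.

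Among the 6 acyl-CoA dehydrogenases, which open each round of the cycle, 3 values were above and 3 below 0, with a median log2 fold change of 0.08. Acadvl, the very-long-chain enzyme, was at 40.0, 38.0 and 45.2 CPM in LCS and 37.5, 32.4 and 30.4 in WT. The groups did not overlap but WT replicate 1 lay next to LCS replicate 2 (0.30 ± 0.15, edgeR adjusted p = 0.251). Acads, the short-chain enzyme, was at 11.0, 7.74 and 11.1 CPM against 9.69, 7.16 and 5.54, and the groups overlapped (0.41 ± 0.24, edgeR adjusted p = 0.326). Acadl (long-chain) had a log2 fold change of 0.26, Acadm (medium-chain) of -0.09, Acad9, also an assembly factor of respiratory complex I, of -0.10 and Acad11 of -0.17. LCS and WT overlapped in each of these 4. Exons of Acadvl overlap Dvl2 on the opposite strand, and the strand setting of the counting is not given in the sources used here.

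The later steps of the cycle had 5 of 6 values above 0, with a median log2 fold change of 0.24. Echs1, the short-chain hydratase, was at 26.7, 25.2 and 27.1 CPM in LCS and 22.6, 18.9 and 20.0 in WT (0.36 ± 0.14, edgeR adjusted p = 0.170). Acat1, a mitochondrial thiolase that also serves ketone bodies and isoleucine breakdown, was at 54.0, 66.2 and 59.6 CPM against 51.5, 46.6 and 44.3 (0.34 ± 0.14, edgeR adjusted p = 0.187). In both genes each LCS library lay above each WT library, and WT replicate 1 was the highest WT library. Acaa2, the medium-chain thiolase, had a log2 fold change of 0.25 ± 0.19 with overlapping groups.

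Hadh stood above every other gene of the set. Per kb of transcript it was at 177, 177 and 149 CPM in LCS and 158, 151 and 122 in WT, the highest mean in both groups. Etfb came next by mean in LCS (43.1 to 63.8 CPM per kb, against 29.1 to 33.3 in WT), and Hadhb in WT (32.8 to 46.2 CPM per kb, against 31.7 to 40.2 in LCS). On its own Hadh gave 24.1% to 30.9% of the CPM summed over the 31 genes. The groups overlapped (log2 fold change 0.22 ± 0.16, edgeR adjusted p = 0.411). The sum over the 31 genes was 1027, 1070 and 1036 CPM in LCS and 971, 954 and 907 in WT, and without Hadh it was 710, 753 and 770 against 687, 684 and 689. At the other end, Ppara was at a mean of 0.208 CPM per kb in LCS and 0.231 in WT, and Ppargc1a at 0.304 and 0.227.

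Hadha and Hadhb, which encode the 2 subunits of one enzyme complex from the shared start region printed above, gave log2 fold changes of 0.06 ± 0.14 and -0.22 ± 0.17 (edgeR adjusted p = 0.814 and 0.457). Hadha was at 55.8, 71.1 and 63.0 CPM in LCS and 63.6, 58.3 and 60.0 in WT, with no separation. Hadhb was at 64.9, 82.2 and 69.2 CPM in LCS and 67.1, 89.99 and 94.4 in WT. The ratio of Hadhb to Hadha was 1.16, 1.16 and 1.10 in LCS, 1.06 in WT replicate 1, and 1.54 and 1.57 in WT replicates 2 and 3. WT replicate 1 thus lay beside the LCS libraries in this ratio, which was not tested.

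Of the 2 peroxisomal genes, the thiolase Acaa1a was at 23.1, 20.3 and 26.2 CPM in LCS and 18.7, 13.9 and 11.9 in WT (log2 fold change 0.64 ± 0.19, edgeR adjusted p = 0.101). All LCS libraries lay above all WT libraries. Acaa1a has a near-identical copy, Acaa1b, between which reads may be split, so its value is uncertain. Acox3, an acyl-CoA oxidase for branched chains, had a log2 fold change of -0.11 ± 0.17 with overlapping groups.

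All 3 auxiliary enzymes, which let unsaturated chains enter the cycle, had values above 0, with a median log2 fold change of 0.44. Eci1, a mitochondrial enoyl-CoA isomerase, was at 9.44, 8.995 and 12.7 CPM in LCS and 8.50, 5.33 and 4.70 in WT (0.74 ± 0.25, edgeR adjusted p = 0.128). WT replicate 1 was near the 2 lower LCS libraries and far from the other WT libraries. Eci2, an isomerase of peroxisomes and mitochondria, was at 35.6, 29.3 and 39.4 CPM against 25.4, 25.7 and 25.5 (0.44 ± 0.15, edgeR adjusted p = 0.131). Here the WT libraries agreed closely and each LCS library lay above them. Decr1, the dienoyl-CoA reductase, had a log2 fold change of 0.23 ± 0.17 with overlapping groups.

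Electron transfer held the gene with the smallest p of the set. Etfb, the beta subunit of the flavoprotein, was at 44.9, 38.5 and 57.0 CPM in LCS and 29.7, 28.5 and 26.0 in WT, with a log2 fold change of 0.74 ± 0.17 (edgeR adjusted p = 0.0562). All WT libraries, replicate 1 included, lay below all LCS libraries. Etfa, the alpha subunit, was at 35.1, 40.1 and 41.5 CPM against 33.0, 32.3 and 29.3 (0.30 ± 0.14, edgeR adjusted p = 0.222), also without overlap. Etfdh, which passes the electrons on to ubiquinone, was at 20.7 to 26.9 CPM in LCS and 23.4 to 24.2 in WT (-0.04 ± 0.15). The ratio of Etfb to Etfa was 1.28, 0.959 and 1.37 in LCS and 0.902, 0.884 and 0.887 in WT. Exons of Etfb overlap those of Gm45233 and Mir7051 on the same strand.

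Acot2, a mitochondrial thioesterase that releases the free fatty acid again, was low, at 2.87, 2.22 and 2.42 CPM in LCS and 2.85, 1.23 and 1.10 in WT (log2 fold change 0.52 ± 0.38, edgeR adjusted p = 0.417). WT replicate 1 sat among the LCS libraries while the other 2 WT libraries lay lower. Acot1 is a near-identical copy, so the value is uncertain. By group mean the regulators were the lowest of the 31 genes tested. Ppara, the fatty acid-sensing nuclear receptor, had 9 to 36 counts per library and was at 0.315, 0.707 and 0.829 CPM in LCS and 0.478, 0.740 and 0.836 in WT (-0.13 ± 0.45, edgeR adjusted p = 0.883). Ppargc1a, a coactivator of mitochondrial genes, was at 1.96, 2.02 and 1.91 CPM against 0.790, 1.58 and 2.04 (0.43 ± 0.36, edgeR adjusted p = 0.481). Its LCS libraries were close together and its WT libraries spanned them, replicate 1 being the lowest.

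**Figure D3:**
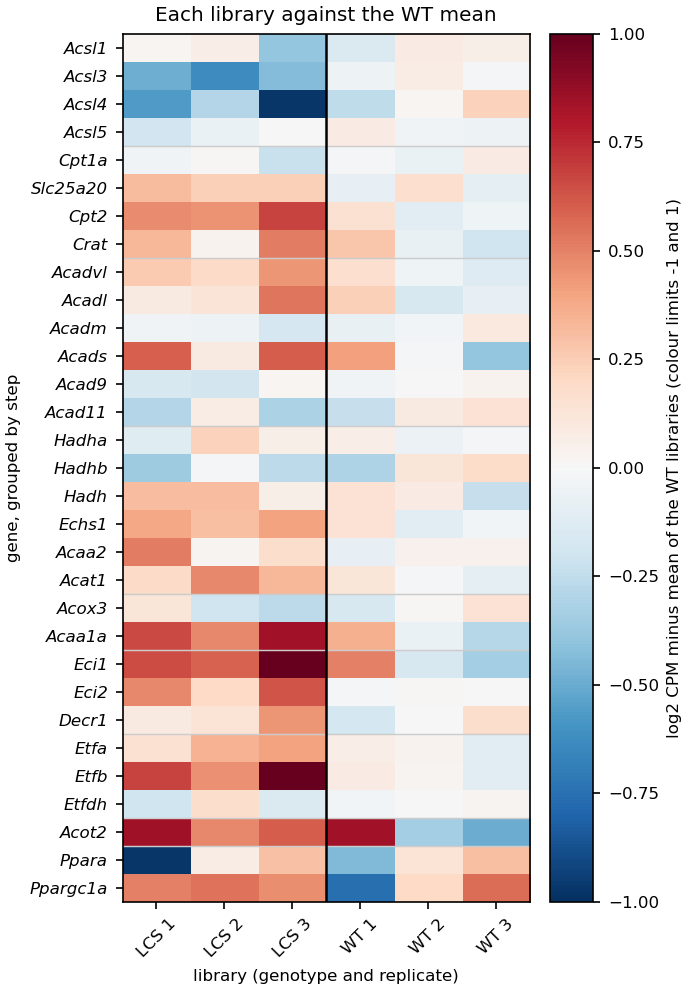
Log2 CPM of each of the 31 genes (y axis, grouped by step) minus the mean of the 3 WT libraries, in each library (x axis), with red above and blue below that mean and colours limited at -1 and 1. Acsl3 and Acsl4 are blue and Cpt2, Eci1, Eci2 and Etfb red in all 3 LCS columns, and WT replicate 1 is red with them for Eci1 and Acot2.

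Fold changes followed transcript length, in these genes as in all others. Lengths of the 31 transcripts, as medians over GENCODE M21 transcripts linked to RefSeq, ran from 893 nucleotides for Etfb to 6464 for Ppargc1a. Across the 31 genes Spearman's rho between length and log2 fold change was -0.554, and across 13658 protein-coding genes it was -0.544; all of these values come from the same 6 libraries, and genes are not replicates. Etfb was the only one of the 31 under 1000 nucleotides, with 0.74, and the 822 protein-coding genes of that class had a median of 0.71. All 10 genes of 1000 to 2000 nucleotides had values above 0, with a median of 0.33, where the 2966 genes of that class had a median of 0.31 and 79.1% of them were above 0. Between 2000 and 4000 nucleotides the 15 genes had a median of -0.09 and the 5752 genes -0.01, and above 4000 the medians were -0.08 over 5 genes and -0.24 over 4118 genes. Library by library, the relation was taken as a rho between length and log2 CPM minus the mean of all 6 libraries. Over protein-coding genes it was -0.276, -0.191 and -0.561 in LCS and 0.13, 0.439 and 0.449 in WT. WT replicate 1 again lay between the other WT libraries and the LCS libraries. Over the 31 genes the rho was -0.506, -0.0706 and -0.554 in LCS, so replicate 2 showed little relation, and 0.148, 0.508 and 0.59 in WT. Set against the mean of the same 6 libraries, these values are not independent of the fold changes above.

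**Figure D4:**
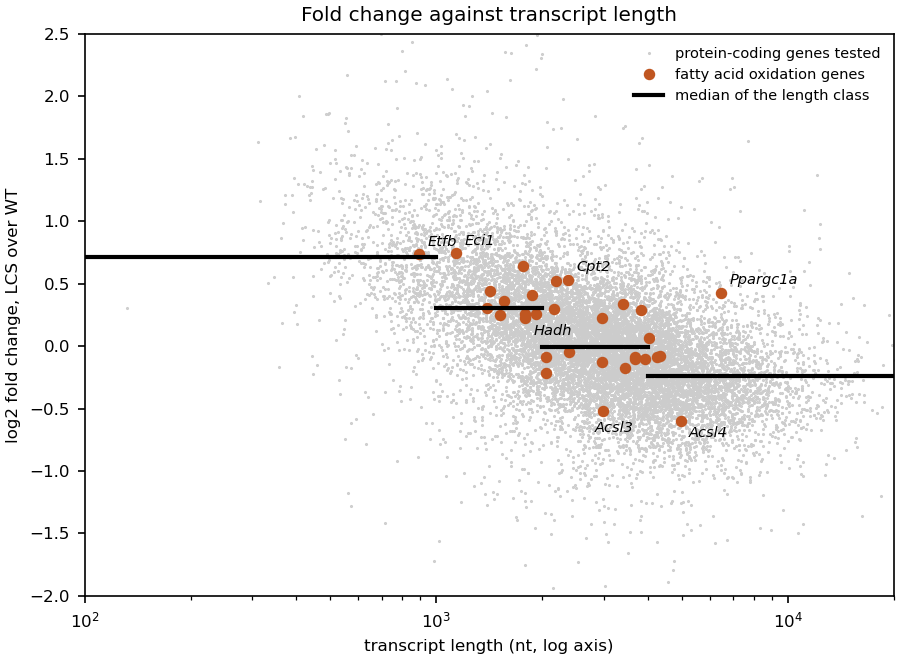
Log2 fold change (LCS over WT, y axis, shown from -2 to 2.5) against transcript length (x axis, log scale) for protein-coding genes tested (grey) and the 31 fatty acid oxidation genes (orange), with bars for the median of each length class. Both sets slope downwards, and Etfb lies at the median of the shortest class.

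With a smooth offset for length in the model, the median of the 31 genes was 0.07, and adding GC content to that offset gave 0.07. Under both offsets 0 genes of the set were called. Etfb went from 0.74 to 0.08 with the length offset and to -0.02 with length and GC content, and Eci1 from 0.74 to 0.26 and 0.24. Cpt2 (0.46 and 0.41), Acat1 (0.40 and 0.51) and Acsl3 (-0.50 and -0.31) moved less, and Acsl4 went from -0.60 to -0.41 and -0.13. Without overlap, 5 of the 31 genes were higher and 1 lower under the length offset, where 9.24% and 9.7% of all protein-coding genes tested were. For length and GC content the counts were 7 higher and 2 lower, where 10.9% and 11.5% of those genes were. Among genes with at least 10 CPM in 3 libraries, 9 of the 22 genes of the set that remained were higher and 1 was lower without overlap, where 18% and 13.6% of all such genes were. Length and genotype move together in these libraries, and whether the relation belongs to the libraries or to the islets cannot be told apart.

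A further 84 genes around the pathway were counted, in lists chosen by function with earlier results of these data known; 75 of them were tested and edgeR called 1 higher and 0 lower, and the median was 0.05 on the log2 scale. The gene called was Acot13, a small thioesterase of mitochondria with a transcript of 721 nucleotides. It was at 43.1, 44.4 and 53.8 CPM in LCS and 25.6, 29.8 and 31.0 in WT, without overlap (0.71 ± 0.15, edgeR adjusted p = 0.0458). That call was lost with DESeq2's size factors, among protein-coding genes alone, with either offset, and on leaving out any library other than WT replicate 1. It was the only one of 26 other mitochondrial acyl-CoA enzymes to pass the test. Of 20 peroxisomal genes tested 0 were called, the smallest p belonging to Acot4, a peroxisomal thioesterase for succinyl-CoA (0.350, 0.530 and 0.447 CPM in LCS and 1.46, 1.55 and 1.02 in WT, -1.58 ± 0.36, edgeR adjusted p = 0.0557). Next came Nudt19, which cleaves coenzyme A (17.2, 18.4 and 18.6 against 13.1, 9.30 and 10.6 CPM, 0.72 ± 0.17, edgeR adjusted p = 0.0586).

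Uptake and activation had 11 genes tested and 0 called. Dbi, the acyl-CoA binding protein, led them at 23.9, 24.5 and 31.1 CPM in LCS and 17.1, 20.7 and 22.6 in WT (0.40 ± 0.17, edgeR adjusted p = 0.195), and Fabp5, a fatty acid binding protein also found in macrophages and fat, had 0.48 ± 0.23 with overlapping groups. Among 18 regulators and targets of PPAR receptors tested, 0 were called. Sirt1, a deacetylase that acts on the coactivator encoded by Ppargc1a, was at 6.54, 6.97 and 6.95 CPM in LCS and 10.001, 11.5 and 14.5 in WT, without overlap (-0.81 ± 0.19, edgeR adjusted p = 0.0557). Prkaa2, a catalytic subunit of AMP-activated kinase, was at 9.61, 11.6 and 5.07 CPM against 11.5, 16.6 and 19.7 (-0.86 ± 0.30, edgeR adjusted p = 0.134), where LCS replicate 2 overlapped WT replicate 1.

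Summed markers of some other cell types in the islet preparation also differed between the groups, and those of others overlapped. Summed CPM of 5 alpha cell markers was 15802 to 20636 in LCS and 12085 to 15755 in WT, and each of the 5 was higher in LCS without overlap, with 0 called. Markers of pancreatic polypeptide cells summed to 3247 to 6029 CPM against 838 to 1489, with Ppy called. Macrophage markers summed to 75.8 to 94.1 CPM against 50.1 to 62.4, and the 7 tested did not go one way by sign. Lyz2 was called higher, and C1qa, C1qb and C1qc had log2 fold changes of 0.78, 0.44 and 0.64, whereas Cd68, Csf1r and Mrc1 had -0.03, -0.16 and -0.29 with overlapping groups. Of the adipocyte markers 1 of 7 could be tested, Fabp4, at 14.1 to 16.4 CPM against 6.86 to 11.7. Sums overlapped for duct markers (528 to 644 CPM in LCS, 320 to 627 in WT) and for stellate and fibroblast markers (35.8 to 66.6 against 31.9 to 102). They did not overlap for delta (1623 to 2107 against 246 to 1220), endothelial (177.2 to 193 against 141 to 176.5) and lymphocyte markers (8.15 to 13.7 against 4.91 to 7.82). By single gene, only 1 of 2 delta (Sst), 1 of 7 endothelial (Emcn) and 1 of 7 lymphocyte markers tested (Cd79b) were without overlap. Of the duct, stellate and fibroblast, delta, endothelial and lymphocyte markers, 0 were called. In bulk RNA, more cells of a type and more RNA per cell cannot be told apart, and the part of these cells in the values above was not tested. Marker transcripts also differ in length. Ppy, Pyy, Sst and Ins2 have 487, 553, 721 and 515 nucleotides, and Slc2a2 has 5569. Other markers higher in LCS are longer than the first group, such as Irx1 (2373) and Cpb1 (2718). The part of transcript length in the marker values was not tested. Leaving the acinar and Reg genes out of the table left the median of the 31 genes at 0.25 with 0 called. That removes rows of other genes and not the reads that acinar cells add to the 31 genes. It therefore cannot show the part of those cells.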

How the data were processed

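Islet poly(A) RNA was sequenced in 3 LCS and 3 WT libraries, prepared with a stranded TruSeq kit per the labels' protocols. The authors deposited 1 table of raw counts by gene. HTSeq 0.9.0, TopHat2 2.1.1, Bowtie2 2.2.9 and the mm9 build are listed, without roles, per the submitters' processing notes. Overlapping genes may share reads, since neither annotation nor strand setting is stated in these sources.

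The test was edgeR 4.0.16 in R 4.3.3 (filterByExpr, TMM, quasi-likelihood F test, genotype as the only term, Benjamini-Hochberg adjustment over all 14539 genes tested, calls under 0.05). Fold changes are LCS over WT, and CPM values are TMM-scaled. Standard errors were derived from the log2 fold change and its F statistic. Alternatives used DESeq2 1.42.0, limma 3.58.1 (voom with sample quality weights), other filters, fewer libraries or genes, and loess offsets (span 0.5) for transcript length and GC content. Restricting the fit to protein-coding genes with no offset was added after the data were seen. The main fit was tested on simulated counts with known changes, and the alternatives and other steps were not. Libraries held 26123654 to 68036676 counts, and intervals from counts cover counting error only.

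The members and the other lists were chosen with earlier results of these data known, so no list was tested. Values in every library are given for up to 2 members of each role with the smallest p and for the called genes, or the 2 with the smallest p, of each pathway list. Hadh, Hadha, Hadhb and the ratios between genes were picked outside this rule after their values were seen. The labels gave the groups, and accession order the replicate numbers. RefSeq promoters and GENCODE M21 lengths, both on a later build than mm9, were joined by NCBI gene number.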

Additional observations from a re-analysis of the deposited data

How the results depend on the processing

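No paired analysis was possible because the replicate numbers are accession order only and the numbers in the titles share no value between genotypes. Of 518 fold changes of the 31 genes under alternatives, 471 kept their direction and side of the threshold. A further 28 were newly past it, and 19 reversed. No call could be lost, since 0 of the 31 genes were called in the main fit. The 28 include calls from the fit with a single WT library, described below.

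Reversed values with the length offset were those of Acaa2 (-0.079), Acad9 (0.022), Acsl5 (0.069), Cpt1a (0.075) and Etfa (-0.076), and with length and GC content those of Acaa2 (-0.097), Acad9 (0.055), Acads (-0.023), Acsl5 (0.10), Cpt1a (0.016) and Etfb (-0.024). Etfdh reversed at 10 CPM or more in 3 libraries (0.0095), and Ppargc1a without WT replicates 1 and 2 (-0.050). On leaving out 1 library, Etfdh ran from -0.144 to 0.052 (reversed without LCS replicate 1 or 3), Ppara from -0.357 to 0.194 (LCS replicate 1 or WT replicate 3), Hadha from -0.0016 to 0.170 (LCS replicate 2) and Acsl1 from -0.155 to 0.050 (LCS replicate 3). The cause was not tested.

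Genes called higher and lower over the whole table numbered 300 and 21 by edgeR, 937 and 571 by DESeq2, 2887 and 2370 by limma-voom with weights, 560 and 126 without a filter, 24 and 3 with the length offset, 90 and 46 with length and GC content, 884 and 331 without WT replicates 1 and 2, and 81 to 1857 and 1 to 1142 on leaving out 1 library. The most, 1857 and 1142, came without WT replicate 1. Of the 31 genes, DESeq2 called 3 higher and 2 lower, limma-voom 10 and 3, and the unfiltered fit 1 higher. Leaving out 1 library gave 0 to 5 higher and 0 to 1 lower. Of the other pathway genes, edgeR called 1 higher and 0 lower, DESeq2 3 and 5, limma-voom 13 and 8, the unfiltered fit 2 and 2, the 10 CPM filter 2 higher, and leaving out 1 library 0 to 7 higher and 0 to 6 lower. DESeq2 size factors, both offsets and protein-coding genes alone gave 0 higher. The fit without WT replicates 1 and 2 has a single WT library, replicate 3, which is assumed to vary like the LCS libraries. Its calls are therefore not listed, though the values newly past the threshold above include them. Its median over the 31 genes was 0.21. The median of the 31 genes was 0.069 with each offset and 0.18 to 0.30 on leaving out 1 library. Genes without overlap numbered 5 higher and 1 lower with the length offset (9.24% and 9.7% of all genes in that fit), and 1 lower at 10 CPM or more (13.6%).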

Other observations

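Beside the genes named above, branched-chain amino acid breakdown shares its last steps with fatty acid oxidation, and its genes in the mitochondrial list went both ways by sign. Ivd, isovaleryl-CoA dehydrogenase of leucine breakdown, was at 41.4, 40.4 and 41.3 CPM in LCS and 55.9, 58.4 and 54.1 in WT, and the groups did not overlap (log2 fold change -0.45 ± 0.13, edgeR adjusted p = 0.0894). Mcee, methylmalonyl-CoA epimerase of propionate handling, was at 11.6, 15.1 and 16.1 CPM against 6.72, 9.55 and 9.54, also without overlap (0.74 ± 0.20, edgeR adjusted p = 0.0854). Neither was called, and both were picked after their values were seen. Their transcripts have lengths of 3665 and 828 nucleotides.

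Echdc1, an enzyme that clears ethylmalonyl-CoA, was at 19.7, 24.2 and 17.5 CPM in LCS and 24.3, 33.0 and 36.4 in WT (-0.61 ± 0.19, edgeR adjusted p = 0.112). WT replicate 1 lay next to LCS replicate 2. Abcd3, a peroxisomal membrane transporter of acyl-CoA, was at 103, 114 and 97.7 CPM against 119, 139 and 140 (-0.34 ± 0.14, edgeR adjusted p = 0.178), again with WT replicate 1 nearest to LCS.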
